A study of Mus musculus with 10 samples.

Results

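Inflammasomes are protein platforms that assemble in the cytosol and activate inflammatory caspases, and the 8 genes described here encode their core parts and the pore-forming proteins that act after them: the sensors Nlrp3, Nlrc4 and Aim2, the adaptor Pycard, the caspases Casp1 and Casp4, and the gasdermins Gsdmd and Gsdme. They were taken by gene symbol, a rule that uses no expression value, and each of the 8 had 1 entry among the 25233 entries of the expression table that carry a gene symbol. Expression was measured by bulk RNA sequencing in 10 libraries of sorted liver cells from C57BL/6J mice. The 5 hypHSC libraries came from hypertrophied hepatic stellate cells of mice fed a CDAHFD, a choline-deficient, low-methionine, high-fat diet that produces steatohepatitis and fibrosis, with hypHSC 1 and 2 taken after 13 weeks of diet at 19 weeks of age and hypHSC 3, 4 and 5 after 12 weeks at 18 weeks of age. The 5 qHSC libraries came from quiescent hepatic stellate cells of mice on a standard diet, with qHSC 1, 2 and 5 aged 36 weeks and qHSC 3 and 4 aged 34 weeks. None of the groups carried a transgene or deletion. Livers of CDAHFD mice were digested with more enzyme than those of standard-diet mice. Antibiotics were added to the buffers, except the perfusion buffer, for CDAHFD preparations, in which the paper reports bacterial contamination. Cells were sorted after a density gradient on retinoid fluorescence, green for hypHSCs and blue for qHSCs. Diet, age, digestion, antibiotics and sorting gate thus changed together between the groups and cannot be told apart. The preparations were picked for RNA integrity, those of hypHSCs out of more samples than mice. The mouse behind each library is not given in the sources used here, so n counts preparations.

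A sensor that meets its trigger recruits Pycard (also known as ASC), which gathers procaspase-1 until the enzyme cleaves itself. Active caspase-1 matures interleukin-1β and interleukin-18 and cuts gasdermin D, whose freed end forms pores in the plasma membrane, a lytic death called pyroptosis. Mouse caspase-11, encoded by Casp4, binds bacterial lipopolysaccharide directly and cuts the same gasdermin, and gasdermin E is another pore-former of the same family. In liver this machinery is best known from macrophages, the Kupffer cells among them, and has also been described in hepatic stellate cells.

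Promoter sequences are shown for Pycard, Casp1 and Casp4, since Casp1 and Casp4 are neighbours on chromosome 9, with 1559 bases between the end of Casp1 and the start of Casp4, yet their ratio differed between the groups, and since Pycard rose with Casp1. Each run is the 250 bases before the start of the GENCODE canonical transcript in GRCm39, written 5′ to 3′ on the gene's strand, with motif matches in capitals. The Pycard window is chr7:127593040-127593289 on the minus strand, the Casp1 window chr9:5298258-5298507 on the plus strand and the Casp4 window chr9:5308593-5308842 on the plus strand.
Pycard: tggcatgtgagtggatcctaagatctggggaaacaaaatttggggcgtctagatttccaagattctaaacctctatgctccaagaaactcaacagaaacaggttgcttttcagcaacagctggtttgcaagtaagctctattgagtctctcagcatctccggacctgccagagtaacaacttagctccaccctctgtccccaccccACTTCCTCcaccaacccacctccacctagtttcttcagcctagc
Casp1: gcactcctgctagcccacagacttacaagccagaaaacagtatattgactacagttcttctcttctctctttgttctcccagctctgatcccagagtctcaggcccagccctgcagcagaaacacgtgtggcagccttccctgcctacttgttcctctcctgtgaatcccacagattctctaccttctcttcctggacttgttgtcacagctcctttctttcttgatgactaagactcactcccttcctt
Casp4: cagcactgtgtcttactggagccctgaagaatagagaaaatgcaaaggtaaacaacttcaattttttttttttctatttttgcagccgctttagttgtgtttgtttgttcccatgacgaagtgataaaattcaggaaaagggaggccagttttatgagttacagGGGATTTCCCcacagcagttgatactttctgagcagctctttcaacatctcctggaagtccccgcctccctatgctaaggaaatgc
The motifs searched, on both strands, were a PU.1 site (GAGGAAGT), an ISRE core (GAAA, any 2 bases and GAAA again), an NF-kB site (GGGA, any 4 bases and CC) and an AP-1 site (TGANTCA). The Pycard promoter held a PU.1 match 44 bases before the start, on the strand opposite to the gene, a motif found in 2.08% of 21757 promoters of the same length. The Casp4 promoter held an NF-kB match 86 bases before the start, a motif found in 18.2% of those promoters. No member's window held the ISRE core, present in 3.32% of promoters, or the AP-1 site, present in 6.18%, and the windows of the other 6 members held none of the 4 motifs. Such matches describe the letters in these windows.

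The libraries held 30534719 to 47317028 reads on genes with a symbol. Values are normalized counts, that is, read counts divided by a size factor for each library, and the floor of 3 reads corresponded to 2.25 to 4.54 normalized counts. Mitochondrial reads made up 2.21% to 12.8% of the hypHSC and 1.25% to 1.61% of the qHSC reads. The labelled cell type was checked against marker lists. All 15 quiescent stellate cell markers, Lrat and Reln among them, were lower in hypHSCs, with a summed normalized count of 35016 to 69610 against 1.405e+06 to 2.29681e+06 in qHSCs. Of these markers, Ngfr was at 0 in hypHSC 5 and Gfap in hypHSC 4 and 5, and the others had reads in every library. All 12 core macrophage markers were higher in hypHSCs, with a summed count of 1.09851e+06 to 1.4123e+06 against 4794 to 75605, and Lyz2 alone reached 740305 to 940344 in the hypHSC libraries. Every hypHSC library therefore carried abundant macrophage transcripts, so none could be left out to give a value free of them. Among the qHSC libraries the same sum was highest in qHSC 4 (75605) and qHSC 1 (34016) and at most 9017 in the other 3. All 4 tested cholangiocyte markers were also higher (summed count of the list 161426 to 336684 against 30.8 to 387). Nearly all of that sum in hypHSCs was Spp1 (160907 to 335921). Of 10 listed neutrophil markers, 6 were tested and 5 were higher (summed count of the list 2086 to 8493 against 14.2 to 425). Ly6g, Cxcr2, Camp and Ngp did not pass the filter, with hypHSC means of 2.72, 37.1, 1.62 and 10.2. Of the other lists, 2 of 6 tested Kupffer cell markers (Vsig4 and Cd5l) were called higher. The rest were not called. Their means were lower in hypHSCs for Timd4 (17.8 against 505), Cd163 (31.3 against 574) and Clec4f (4930 against 5953), and higher for Marco (1161 against 661). Monocyte markers were split (4 higher and 1, Plac8, lower of 6), as were endothelial markers (2 higher and 4 lower of 9). Of the B cell markers 1 of 2 was higher, and none of 10 hepatocyte or 2 T and NK cell markers was called. In such bulk samples, more cells of a type and more RNA per cell cannot be told apart.

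The comparison asked which of these genes differ between preparations sorted as hypHSCs from steatohepatitic livers and preparations sorted as qHSCs from healthy ones. In hypHSCs 5 of the 8 genes rose, namely Nlrp3, Nlrc4, Aim2, Pycard and Casp1, by 2.82 to 5.52 on the log2 scale. None of the 8 was called lower, and Casp4, Gsdmd and Gsdme did not pass the test. A gene was called at a log2 fold change of at least 1 in size and an adjusted p of at most 0.05. The test was limma on log2(normalized count + 1) with Benjamini-Hochberg adjustment over 14630 genes. On that scale the folds of genes near 0 depend on the pseudocount of 1. Tests on recovered reads gave lower folds for Nlrc4 (DESeq2 3.95, edgeR 3.94) and Nlrp3 (3.25 and 3.23), both still called. By the limma rule 17.8% of all genes tested were called higher and 21.7% lower. The median log2 fold change was 3.31 over the 8 genes and -0.20 over all genes tested. All 8 passed the filter on low values (at least 10 normalized counts in at least 5 libraries), but Nlrp3 and Nlrc4 reached 10 in only 2 of the 5 qHSC libraries, so they passed through the group where they were high. The groups did not overlap in 6 of the 8 genes, the 5 called and Gsdmd, against 39.5% of all genes tested.

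**Figure D1:**
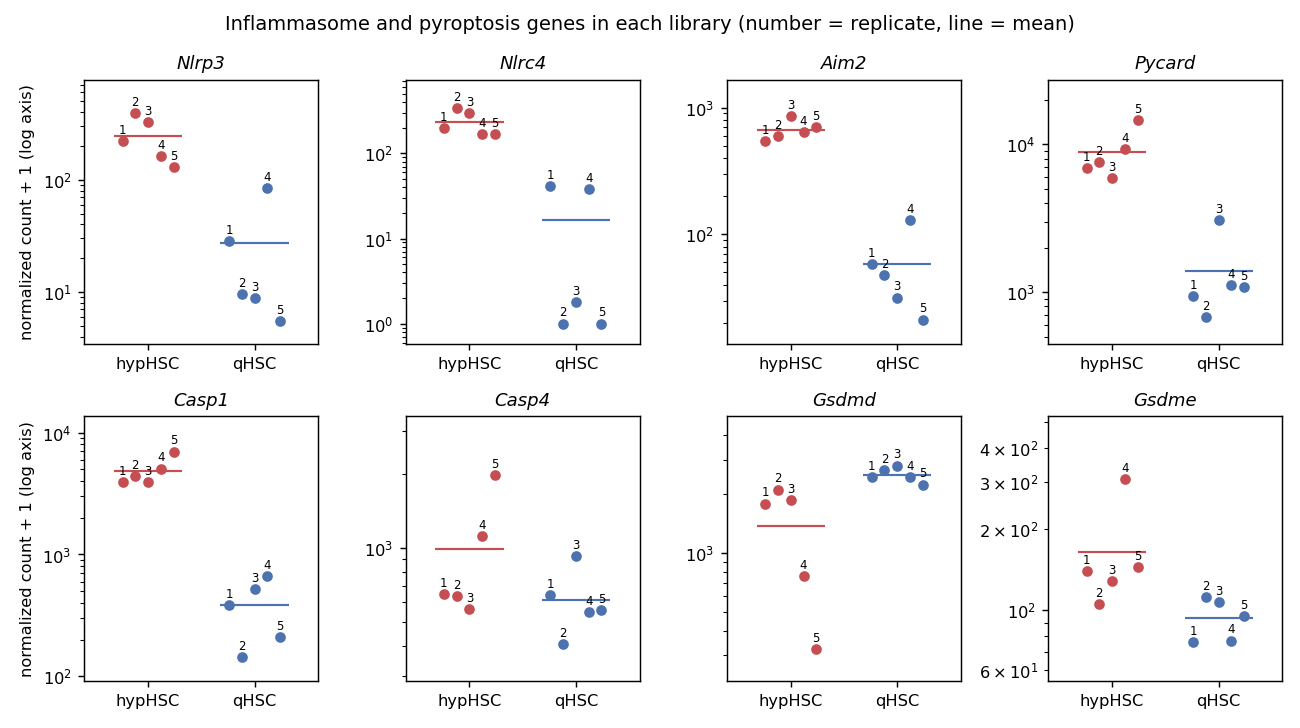
Normalized count + 1 (log axis) of each gene in the 5 hypHSC libraries (red) and 5 qHSC libraries (blue), with the replicate number above each point and a line at the group mean. The sensors, Pycard and Casp1 separate the groups, Casp4 and Gsdme overlap, and Gsdmd lies at 320.65 to 2108.81 in hypHSCs, below its 2241.11 to 2802.00 in qHSCs.

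Nlrp3 (chr11:59432395-59457782) encodes the sensor that responds to potassium efflux, crystals and membrane damage. It had 218.30, 392.36, 325.15, 160.51 and 128.56 normalized counts in hypHSC 1 to 5, and 27.15, 8.52, 7.87, 83.86 and 4.50 in qHSC 1 to 5. The groups did not overlap, and the highest qHSC values were those of qHSC 4 and qHSC 1, the libraries with the highest macrophage marker sums. The mean was 245 ± 111 (SD, n = 5) in hypHSCs and 26.4 ± 33.3 (n = 5) in qHSCs, a log2 fold change of 3.80 ± 0.72 (SE) with a limma adjusted p of 0.00119. Leaving out qHSC 1 and 4 together, an alternative added after seeing the data, gave 4.87 with an adjusted p of 0.000128.

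Nlrc4 (chr17:74733290-74766104) encodes the sensor that NAIP proteins switch on when they bind flagellin or parts of the bacterial secretion needle. Its hypHSC values were 196.74, 341.63, 296.05, 168.91 and 169.40 normalized counts, and its qHSC values were 40.73, 0, 0.79, 36.79 and 0. Thus 3 qHSC libraries held at most 1 read, and qHSC 1 and 4 held 45 and 43 reads. Its mean was 235 ± 79.4 in hypHSCs and 15.7 ± 21.1 in qHSCs (SD, n = 5 each), and the log2 fold change of 5.52 ± 1.12 (SE; limma adjusted p = 0.00187) rests on the pseudocount of 1 where qHSC libraries are near 0. Of its exon bases, 17.9% lie opposite exons of Slc30a6, and the reads carry no strand. Slc30a6 itself had a log2 fold change of -0.40 (limma adjusted p = 0.0900).

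Aim2 (chr1:173248170-173293606) encodes a sensor that binds double-stranded DNA in the cytosol. Its normalized counts were 545.74, 595.27, 859.86, 642.05 and 698.77 in the hypHSC libraries, against 57.02, 46.86, 30.70, 129.21 and 20.23 in the qHSC libraries. The lowest hypHSC library was thus above the highest qHSC library, which was qHSC 4. The means were 668 ± 121 and 56.8 ± 42.9 (SD, n = 5 each), and the log2 fold change was 3.80 ± 0.44 (SE; limma adjusted p = 4.10e-05). Aim2 varied least among the hypHSC libraries of all 8 genes, with a coefficient of variation of 18.1%, where the others had 26.3% to 60.3%.

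Pycard (chr7:127590545-127593039) encodes the adaptor that links the sensors to caspase-1. Its hypHSC values were 6935.62, 7586.32, 5891.80, 9293.97 and 14637.80, and its qHSC values were 944.91, 673.11, 3086.21, 1115.82 and 1074.48. The groups did not overlap, hypHSC 5 was highest, and in qHSCs the high library was qHSC 3, whose macrophage marker sum was 9017, not qHSC 1 or 4. The means were 8869 ± 3454 and 1379 ± 970 (SD, n = 5 each), with a log2 fold change of 2.82 ± 0.38 (SE; limma adjusted p = 0.00012).

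Casp1 (chr9:5298517-5307289), the protease at the centre of the canonical inflammasome, had 3909.12, 4382.22, 3929.25, 5052.46 and 6980.10 normalized counts in hypHSCs. It had 382.85, 143.99, 522.77, 662.30 and 209.05 in qHSCs. Every hypHSC library was above every qHSC library, and the means of 4851 ± 1278 and 384 ± 215 (SD, n = 5 each) gave a ratio of 12.6. Its log2 fold change was 3.83 ± 0.39 (SE) with a limma adjusted p of 1.61e-05, the lowest among the 8 genes.

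Casp4 (chr9:5308849-5336791), the lipopolysaccharide-binding caspase of the non-canonical pathway, gave normalized counts of 648.15, 635.64, 563.82, 1117.29 and 1982.86 in the hypHSC libraries, against 642.61, 403.02, 924.29, 546.78 and 555.22 in the qHSC libraries. The groups overlapped, and hypHSC 4 and 5 lay above all other libraries. The log2 fold change was 0.56 ± 0.36 (SE; 95% interval -0.22 to 1.35) with a limma adjusted p of 0.217. It was 0.05 when hypHSC 4 and 5 were left out together, again an alternative added after seeing the data, and -0.37 when libraries were scaled on Hprt, Pgk1 and Actb.

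Gsdmd (chr15:75734176-75739255) is the pore-former cut by both caspases, and its values were lower in hypHSCs. Its normalized counts were 1790.84, 2108.81, 1864.42, 762.70 and 320.65 in the hypHSC libraries, against 2439.20, 2647.29, 2802.00, 2444.70 and 2241.11 in the qHSC libraries. Every hypHSC library was below every qHSC library, hypHSC 4 and 5 by far the most. The means were 1369 ± 781 and 2515 ± 215 (SD, n = 5 each), and the coefficient of variation was 57.0% in hypHSCs against 8.56% in qHSCs. The log2 fold change was -1.17 ± 0.46 (SE; 95% interval -2.17 to -0.17) and the limma adjusted p of 0.0537 missed the threshold. The exact two-sided permutation test gave p = 0.00794 for Gsdmd, the smallest value it can give here. Without hypHSC 4 and 5 the log2 fold change was -0.39 with a limma adjusted p of 0.0246, under the fold needed for a call, so the size of the difference rested on those libraries. These libraries also had the highest hepatocyte marker sums of the hypHSC group (89041 and 234010, against 13227 to 34201) and the fewest genes with a read (14949 and 14028, against 15821 to 16634), and the part of either in the Gsdmd values was not tested. Gsdmd was called lower in 8 of 25 alternatives.

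Gsdme (chr6:50165868-50240843), the related pore-former, gave normalized counts of 138.79, 104.56, 127.23, 305.29 and 143.69 in the hypHSC libraries, against 75.12, 110.77, 106.29, 76.16 and 94.41 in the qHSC libraries. Only hypHSC 2 fell within the range of the qHSC libraries, and hypHSC 4 stood above the rest. The log2 fold change was 0.73 ± 0.35 (SE; 95% interval -0.03 to 1.49; limma adjusted p = 0.103), and the exact two-sided permutation p was 0.0238. Its sign turned, to -0.20, with scaling on Hprt, Pgk1 and Actb. Of its exon bases, 24.03% lie opposite exons of Pals2, which had means of 434 ± 199 and 75.0 ± 19.0 (hypHSC and qHSC, SD, n = 5 each; log2 fold change 2.44, limma adjusted p = 0.000203), and without strand the reads of the pair cannot be separated there. The share of exon bases opposite another gene was 11.5% for Pycard, 9.42% for Gsdmd and 3.51% for Casp1, each with a predicted gene, and 0 for Nlrp3, Aim2 and Casp4.

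**Figure D2:**
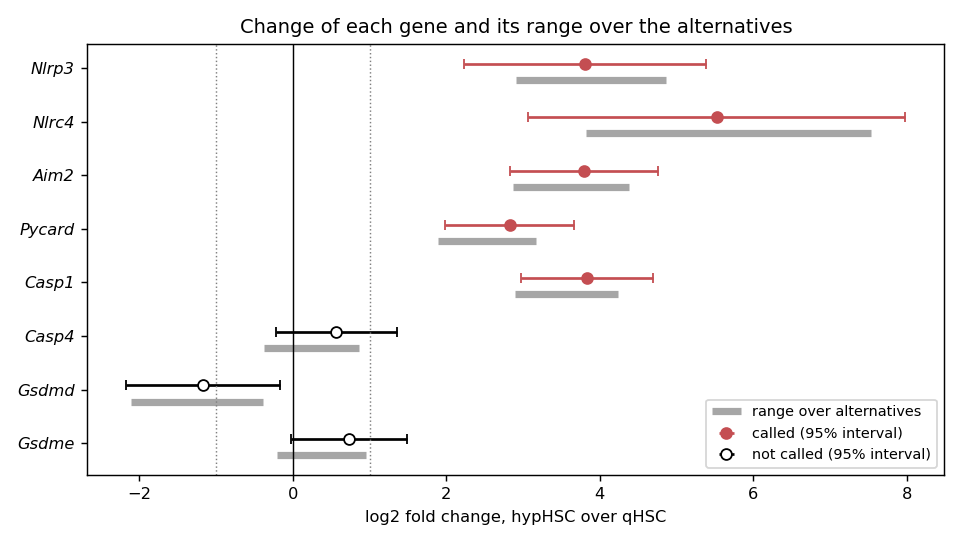
Log2 fold change of hypHSCs over qHSCs for each gene, with its 95% interval (filled, called; open, not called), over a grey bar that spans the values under 25 alternative settings; dotted lines mark the fold needed for a call. The intervals of the 5 called genes lie above 1, those of Casp4 and Gsdme include 0, and that of Gsdmd runs from -2.17 to -0.17.

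Levels of different genes were compared as FPKM, computed from the recovered reads and the exon length of each gene in GENCODE. For Pycard that length, 4235 bases, exceeds the whole span of its deposited entry (chr7:127590545-127593039), on which its reads were counted. Its FPKM is therefore too low, and its overlaps with other genes and its place in qHSCs depend on this length. In hypHSCs the order by mean FPKM was Pycard (48.7 ± 13.8), Casp1 (36.4 ± 6.07), Gsdmd (11.4 ± 6.97), Casp4 (4.32 ± 2.14), Aim2 (2.46 ± 0.66), Nlrp3 (1.49 ± 0.78), Nlrc4 (1.19 ± 0.49) and Gsdme (0.295 ± 0.130; SD, n = 5 throughout). Adaptor and caspase-1 transcripts thus lay above the gasdermins and far above the sensors. Of the 7 neighbouring pairs, only Casp1 and Gsdmd and then Nlrc4 and Gsdme had ranges that did not overlap. In qHSCs Gsdmd came first with 25.7 ± 3.36 FPKM, before Pycard (10.1 ± 7.68), Casp1 (3.80 ± 2.20) and Casp4 (3.61 ± 1.298). These were followed by Aim2 (0.266 ± 0.201), Gsdme (0.217 ± 0.042), Nlrp3 (0.200 ± 0.253) and Nlrc4 (0.100 ± 0.135), and the only neighbours whose ranges did not overlap were Casp4 and Aim2. With these lengths Gsdmd FPKM was above Pycard FPKM in each of the 5 qHSC libraries, although their ranges overlapped between libraries. That order is not read, because the Pycard length is too long. In qHSC 3 Pycard held 3920 reads and Gsdmd 3559.

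Ratios of (normalized count + 1) between members within a library barely depend on the size factors where both counts are high. Of these, 9 were tested by exact two-sided permutation of the mean log2 ratio, with Benjamini-Hochberg adjustment over the 9. The group difference in mean log2 ratio equals the difference between the log2 fold changes of the paired genes, so it adds no independent support to them. The ratio of Casp1 to Casp4 was 6.02, 6.88, 6.96, 4.52 and 3.52 in hypHSC 1 to 5 and 0.596, 0.359, 0.566, 1.21 and 0.378 in qHSC 1 to 5. Every hypHSC library was above every qHSC library, of which qHSC 4 came closest (exact permutation p = 0.00794, adjusted 0.0179). The ratio of Casp1 to Gsdmd, the protease over its substrate, was 2.08 to 21.7 in hypHSCs and 0.0547 to 0.271 in qHSCs (exact permutation, adjusted p = 0.0179), with hypHSC 5 at the top. Pycard over Gsdmd was 3.16 to 45.5 against 0.255 to 1.10 (exact permutation, adjusted p = 0.0179). Gsdmd over Gsdme ranged from 2.22 to 19.99 in hypHSCs and from 23.5 to 32.1 in qHSCs (exact permutation, adjusted p = 0.0179). Casp4 over Gsdmd ranged from 0.302 to 6.17 against 0.153 to 0.330, an overlap of the groups, with an adjusted exact permutation p of 0.0429.

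The other 4 ratios did not pass. Pycard over Casp1 was 1.499 to 2.10 in hypHSCs and 1.68 to 5.89 in qHSCs (exact permutation, adjusted p = 0.0595). Nlrc4 over Nlrp3 was 0.871 to 1.32 in hypHSCs, 1.48 in qHSC 1 and 0.445 in qHSC 4, and in the other 3 qHSC libraries, with at most 1 Nlrc4 read, it is set by the pseudocount, so its test is not read. Nlrp3 over Casp1 was 0.0186 to 0.0897 against 0.0169 to 0.128, and Aim2 over Casp1 was 0.100 to 0.219 against 0.0605 to 0.330 (exact permutation, adjusted p = 0.968 for both). The mean log2 difference between the groups was -0.03 for each of these last ratios.

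**Figure D3:**
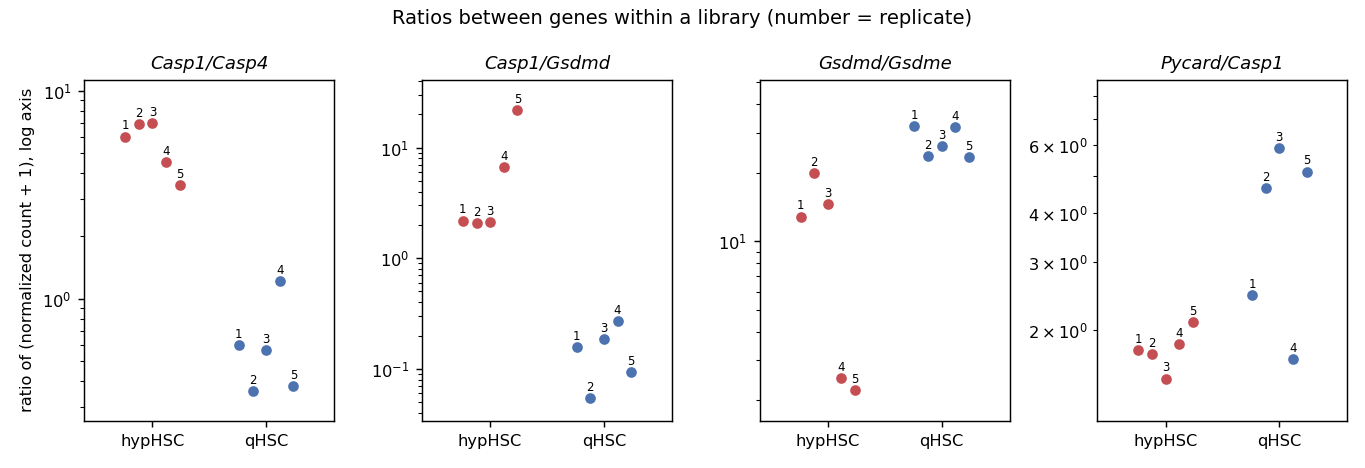
Ratio of (normalized count + 1) between pairs of genes in each library (log axis), hypHSC in red and qHSC in blue, with replicate numbers. Casp1/Casp4 lies at 3.52 to 6.96 in hypHSCs, above its 0.359 to 1.21 in qHSCs, the groups are also apart for Casp1/Gsdmd and Gsdmd/Gsdme, and they overlap for Pycard/Casp1.

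Macrophage transcripts moved with these rises, and their part in them was not tested. Per 1000 normalized counts of the 12 macrophage markers, Casp1 had 2.99 to 6.35 counts in hypHSCs and 8.76 to 58.0 in qHSCs. Nlrp3 had 0.117 to 0.278 against 0.601 to 1.78, and Aim2 had 0.418 to 0.707 against 1.68 to 9.78. Relative to the markers, then, these genes were lower in every hypHSC library than in every qHSC library, as were Pycard, Casp4, Gsdmd and Gsdme. The marker sum itself was far higher in every hypHSC library. A gene that rose less than the sum had to fall on this scale, so nothing is read from the fall. Nlrc4 overlapped on this scale, with 0.134 to 0.243 against 0 to 1.197. Leaving out qHSC 1 and 4, the qHSC libraries with the most marker counts, left the 5 genes called, with log2 fold changes of 2.69 for Pycard, 4.23 for Casp1, 4.38 for Aim2 and 4.87 for Nlrp3. The fold of Nlrc4 is then set by the pseudocount, since the remaining qHSC libraries hold at most 1 read of it.

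**Figure D4:**
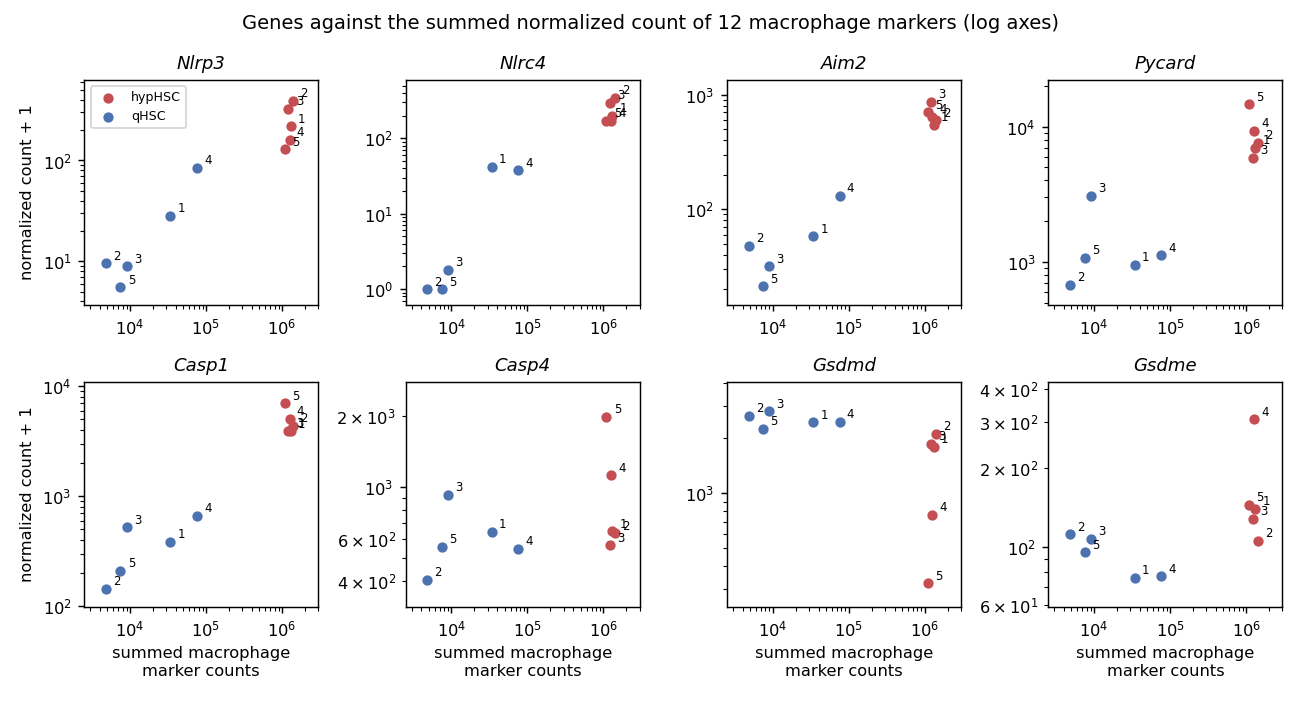
Normalized count + 1 of each gene against the summed normalized count of 12 macrophage markers in the same library (log axes), hypHSC in red and qHSC in blue, with replicate numbers. The hypHSC libraries sit at 1.09851e+06 to 1.4123e+06 on the horizontal axis, qHSC 1 and 4 at 34016 and 75605 and the other qHSC libraries at or below 9017.

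The profile most like each gene was sought among 10791 genes whose mean reached 100 normalized counts, by the root mean square difference of centred log2 values over the 10 libraries. Casp1 was most like Il2rg, the common γ-chain of cytokine receptors (0.30), and Ccdc69 (0.34). Nlrp3 was most like Stk10 (0.33) and Niban1 (0.35), and Nlrc4 most like Rassf2 (0.44) and Cd300lf, a myeloid inhibitory receptor (0.55). Aim2 was most like the Evi2a // Evi2b // Evi2 entry and Tnfsf13os (0.39 each), and Pycard most like Rnf19b (0.33) and Zbtb18 (0.34). Gsdmd had the closest partners of all, Vps11 (0.16) and Ctdsp1 (0.17). Casp4 was most like Ndufb4 and 0610009B22Rik (0.23 each), and Gsdme most like Rex1bd (0.27) and Mrnip (0.28). No member was among the closest partners of another.

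Within the hypHSC group, the values at 13 weeks of diet (n = 2) and at 12 weeks (n = 3) did not overlap for 1 of the 8 genes, against 21.9% of all genes tested. That gene was Aim2, with a mean of 571 normalized counts at 13 weeks and 734 at 12 weeks. Gsdmd had a mean of 1950 at 13 weeks and 983 at 12 weeks, but hypHSC 3, at 12 weeks, lay between hypHSC 1 and 2. No test was made.

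The wider pathway was read from 6 lists of 84 genes, of which 81 were found in the table and 65 passed the filter. Of these 65, 25 (38.5%) were called higher in hypHSCs and 12 (18.5%) lower, beside 17.8% and 21.7% of all genes tested, and their median log2 fold change was 0.79. Nlrp1a, Nlrp6 and Nlrc3, all called, reached 10 normalized counts in at most 2 libraries of their lower group and so passed the filter through the group where they were high. With scaling on Hprt, Pgk1 and Actb the split was 13 higher and 22 lower.

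Among the other sensors, 7 of 16 rose, 2 fell and 7 did not pass the test. Naip5, the flagellin receptor that works with NLRC4, had 515.76 to 1607.46 normalized counts in hypHSCs against 115.39 to 513.41 in qHSCs, groups that just failed to touch (log2 fold change 2.21 ± 0.44, limma adjusted p = 0.0016). Nlrp1b, the sensor cut by anthrax lethal factor, rose by 3.35 ± 0.51 (adjusted p = 0.000267, limma). Ifi203, of the Aim2 family, fell by 1.21 on the log2 scale (limma adjusted p = 0.000948). The rise of Mefv, which encodes pyrin, was called in 12 of 24 alternatives, that of Cgas, the cytosolic DNA sensor, in 3 of 24, and the fall of Nlrp6 in 14 of 24.

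Of 21 genes that prime or license inflammasomes, 7 rose, 6 fell and 8 did not pass. P2rx7, the ATP-gated channel upstream of NLRP3, had 453.21 to 952.17 normalized counts in hypHSCs against 41.75 to 113.14 in qHSCs (log2 fold change 2.98 ± 0.38, limma adjusted p = 8.44e-05). Cd14, the lipopolysaccharide co-receptor, had 36934.8 to 73709.7 against 881.01 to 9300.46 (4.77 ± 0.57, limma adjusted p = 5.39e-05), and Ikbke rose by 2.92. Ripk3, a kinase of necroptosis, had 214.77 to 1333.40 against 51.12 to 637.49, an overlap (2.35 ± 0.70, limma adjusted p = 0.0168), and its call was lost with the hypHSC libraries at 12 weeks and with scaling on Hprt, Pgk1 and Actb. Of the 6 that fell, 5 were interferon-inducible GTPases that act on pathogen vacuoles and bacterial surfaces, namely Gbp2, Gbp3, Gbp5, Gbp7 and Irgm1, the last called in 19 of 25 alternatives. Gbp7 had 550.54 to 772.30 normalized counts in hypHSCs against 3732.51 to 8280.82 in qHSCs (log2 fold change -2.90 ± 0.23, limma adjusted p = 2.47e-06). Gbp5 fell by 3.94 on the log2 scale (SE 1.17), a call lost without qHSC 1 and 4. The size of its fall rests in part on the pseudocount. Its normalized count was 0 in hypHSC 4, against 63.52 to 155.29 in the other hypHSC libraries. The sixth was Txnip, which binds thioredoxin and NLRP3 (-1.47 ± 0.41), lost without qHSC 1 and 4 and also without hypHSC 4 and 5.

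Among the other caspases, Casp8 rose by 1.001 ± 0.163, on the edge of the fold threshold and called in 16 of 25 alternatives. Casp12, a relative of Casp1 and Casp4 linked to the endoplasmic reticulum, fell, with 177.30 to 672.41 normalized counts in hypHSCs against 3031.70 to 4802.53 in qHSCs (log2 fold change -3.73 ± 0.35, limma adjusted p = 1e-05). Casp6 fell by 1.49 on the log2 scale, and Casp9 was not called (-0.64 ± 0.58, limma adjusted p = 0.387). Of 13 other gasdermins and pore or rupture factors, 2 passed the filter and both rose. Ninj1, which breaks the plasma membrane after pores form, had 6036.32 to 15520.5 normalized counts against 2937.00 to 4190.30 (1.75 ± 0.25, limma adjusted p = 0.000162), and Chmp4b, of the ESCRT machinery that repairs pores, rose by 1.31. Both calls were lost with scaling on Hprt, Pgk1 and Actb, and that of Chmp4b also with scaling to the same total. None of the 8 other listed gasdermin genes, Pjvk included, passed the filter.

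The cytokine substrates and receptors were split, with 2 of 7 higher, 2 lower and 3 not called. Il18 had 2157.14 to 3715.91 normalized counts in hypHSCs against 117.64 to 787.23 in qHSCs (log2 fold change 3.62 ± 0.46, limma adjusted p = 8.08e-05), and Il1a rose by 3.93 ± 0.79. Il1b, the other substrate of caspase-1, had 411.64 to 1244.37 against 94.58 to 1287.81, with qHSC 4 above all hypHSC libraries (1.42 ± 0.63, limma adjusted p = 0.0822). Il33, an alarmin, fell, with 309.54 to 1063.27 against 3433.41 to 5372.12 (-3.04 ± 0.36, limma adjusted p = 4.92e-05). Il1r1, the signalling receptor for interleukin-1, fell from 698.24 to 1600.13 in qHSCs to 55.90 to 125.57 in hypHSCs (-3.39 ± 0.30, limma adjusted p = 6.56e-06).

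**Figure D5:**
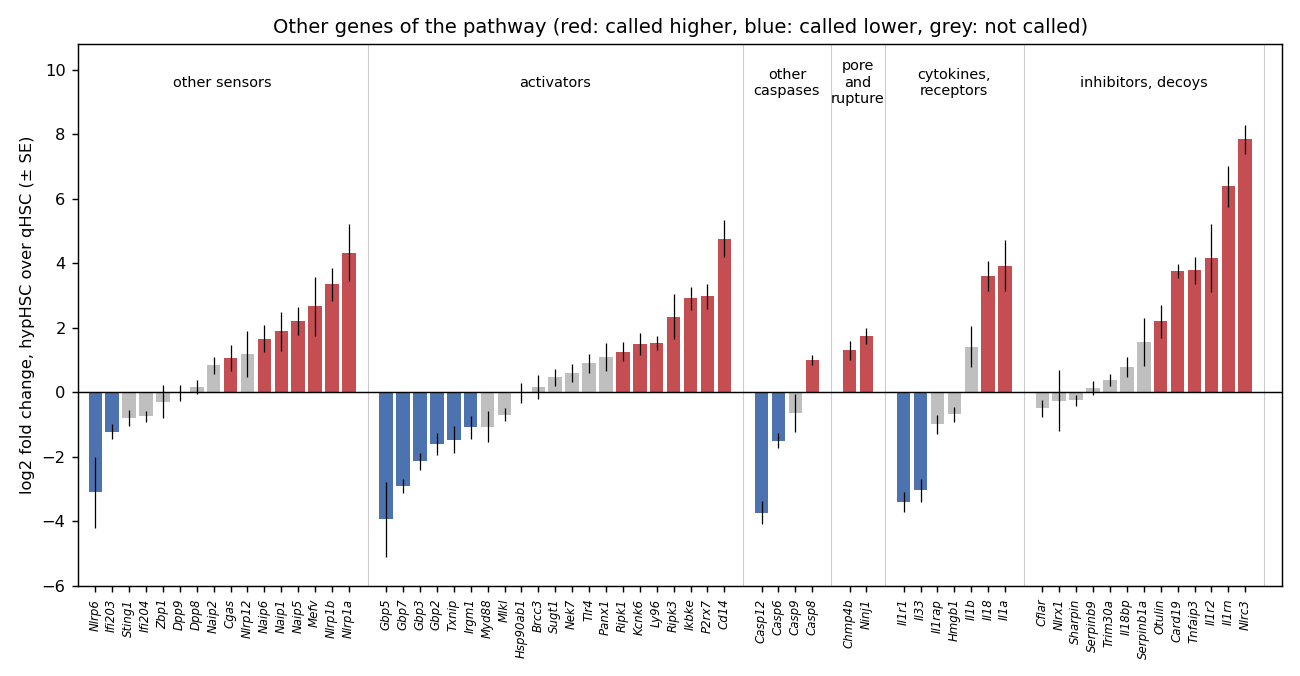
Log2 fold change of hypHSCs over qHSCs (bars, with SE as error bars) for the other pathway genes tested and reported here, grouped by list and ordered by value, with called genes in red (higher) and blue (lower). Both directions appear among the activators (7 higher, 6 lower), whereas 6 inhibitors and decoys were called higher and none lower.

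Of 13 inhibitors and decoys, 6 rose, none fell and 7 did not pass. Il1rn, the interleukin-1 receptor antagonist, had 12640.1 to 25677.3 normalized counts in hypHSCs against 46.01 to 887.35 in qHSCs (log2 fold change 6.39 ± 0.64, limma adjusted p = 1.39e-05). Il1r2, the decoy receptor, had 19.96 to 409.96 against 0 to 29.95, an overlap (4.17 ± 1.05, limma adjusted p = 0.00692), and its call was lost with the hypHSC libraries at 12 weeks only. Nlrc3, an inhibitory relative of the sensors, had 226.38 to 460.70 normalized counts in hypHSCs against 0 to 0.86 in qHSCs, under the floor of 3 reads in every qHSC library. It passed the filter through the hypHSC libraries alone, so it had to differ, and its fitted fold, drawn in the plot of pathway genes, is set by the pseudocount. Tnfaip3, the A20 brake on NF-kB, rose by 3.78 ± 0.42 (limma adjusted p = 3.14e-05). Card19 had 7296.21 to 10996.7 against 425.17 to 966.58 (3.76 ± 0.22, limma adjusted p = 3.42e-07). Il18bp, which captures interleukin-18, had 5496.15 to 8042.40 against 2045.75 to 6913.95 and missed the threshold (0.79 ± 0.31, limma adjusted p = 0.0522).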

How the data were processed

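Sorted cells were lysed and their RNA amplified with oligo-dT priming and template switching into unstranded paired-end libraries. The authors aligned reads with STAR to mm39, counted them with featureCounts (Subread 1.5.0) on FAST DB genes and deposited, in units of signal, counts divided by DESeq2 size factors. In all 10 columns, 100% of values matched a whole number of reads divided by the factor, within the rounding of the deposited values to 2 decimals, and the recovered reads served count-based alternatives and FPKM (reads scaled by exon length and by the library's reads on genes with a symbol). Entries without a symbol (37089 of 62322) were left out of the main fit.

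The main test was limma 3.58.1 (R 4.3.3; trended eBayes) on log2(normalized count + 1), with all 5 hypHSC and 5 qHSC libraries, no covariates, and genes that reached 10 normalized counts in 5 libraries or more. Ratios and single genes were tested by exact permutation (SciPy 1.17.1), and edgeR 4.0.16 and DESeq2 1.42.0 on recovered reads were alternatives. On simulated data for hypHSCs versus qHSCs (14630 genes, 200 changed), limma recovered 88% of genes changed by 2 on the log2 scale. It recovered 100% of those changed by 4, with 10 false calls. The simulation gave all genes the same dispersion, changed no genes of low mean and held no divergent libraries. These rates therefore need not hold for the real libraries. No pair of libraries agreed within sampling noise. Nothing ties libraries to separate mice, so p-values measure the spread between these preparations. The number of reads limits counting precision alone.

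All 8 members, genes of the pathway and marker lists, and the 2 closest profiles per member could be named. The members and lists were chosen with earlier results of these data known. The alternatives covered pseudocount, filter, scaling, test, replicate block, diet weeks, entries without a symbol and libraries left out. Irgb10, Pydc3, Pydc4, Trac and Ighm were not matched by symbol. Some of the listed caspases are counted in the totals but not reported here. Promoter windows were read from GRCm39 with GENCODE vM39, and the coordinates of genes are those of the deposited table.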

Additional observations from a re-analysis of the deposited data

Results flagged for a closer look

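In 74 groups of 5 libraries (37 genes in each group), 11 values stood apart from the rest of their group by Dixon's criterion (critical value 0.71). For normally distributed values chance alone meets it in about 1 group in 20. The screen used normalized counts without a log transform, so that rate need not hold here and the number of flags is not read as an excess. Among the 8 genes these were Nlrp3 in qHSC 4 (83.86 normalized counts, next 27.15), Pycard in qHSC 3 (3086.21, next 1115.82) and Gsdme in hypHSC 4 (305.29, next 143.69). Another 4 pathway genes stood apart in qHSC 4, the qHSC library with the highest macrophage marker sum: Mefv (138.62, next 26.25), Cd14 (9300.46, next 2709.82), Il1a (271.25, next 72.41) and Il18 (787.23, next 248.90). In qHSC 3, 3 guanylate-binding protein genes stood apart: Gbp2 (12580.3, next 3960.72), Gbp5 (1224.25, next 510.37) and Gbp7 (8280.82, next 4419.53). Gbp3 and Irgm1 were not among the 37 genes screened. They too were highest in qHSC 3 among the qHSC libraries (Gbp3 11086.8, next 6041.49, and Irgm1 11491.4, next 5177.99). Nlrp6 stood apart in hypHSC 4 (39.87, next 10.59). The source of these values was not tested.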

How the results depend on the processing

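Nlrp3, Nlrc4, Aim2, Pycard and Casp1 were called higher under all 25 alternatives. The number of the 8 genes called lower, 0 as reported, became 1 (Gsdmd) with a pseudocount of 8, scaling to the same total, scaling on Hprt, Pgk1 and Actb, the replicate block and hypHSC at 12 diet weeks only, and ranged from 0 to 1 when single libraries were left out (1 without hypHSC 1, 2 or 3). The Gsdmd log2 fold change ran from -2.11 (scaling on Hprt, Pgk1 and Actb) to -0.39 (without hypHSC 4 and 5). Scaling on Hprt, Pgk1 and Actb moved the median of all genes from -0.20 to -1.12, turned Casp4 to -0.37 and Gsdme to -0.20, and gave 1472 genes higher and 6989 lower (17.4% of calls higher, against 45.0%), with 13 pathway genes higher and 22 lower. Scaling to the same total moved the median to -0.54 and the share of calls higher to 32.4%. Including entries without a symbol gave 3911 higher and 5380 lower, from more entries tested. Replicate numbers did not pair the libraries: deviations of same-numbered libraries correlated at 0.008 to 0.129, and 1 of 5 numbers matched best with its own. The replicate block put Gsdmd at -1.17 with an adjusted p of 0.0357 and changed no other member's call. Other causes were not tested. Genes near 0 in qHSCs, Nlrc4 and Nlrc3 among them, have folds limited by depth.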
